A study of Mus musculus with 5 samples.

Results

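The spots described here were those with the highest epicardial score in 5 Visium sections of neonatal mouse hearts. Visium captures polyadenylated RNA on a slide printed with barcoded spots, each wide enough to lie under several cells. Every deposited spot carried 11 cell type scores that sum to 100%, made by label transfer from single-nucleus RNA-seq, and 1 of them, EPI, stands for epicardial cells. In each section, spots under 1000 unique molecular identifiers (UMIs) were set aside, and the 5% with the highest EPI score, rounded up, were taken if the score was above 0. This gave 127 top-score spots of 3342 kept spots (3.80%), from 3364 deposited spots. They numbered 28 in sham day 3, 14 in sham day 7, 19 in MI day 3, 35 in MI day 7 replicate 1 and 31 in MI day 7 replicate 2. Sham day 7 and MI day 7 replicate 2 fell short of 5% because only 14 and 31 of their spots had an EPI score above 0. Values for the 5 sections are given throughout in the order just used.

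All sections came from wild-type C57BL/6 mice operated at postnatal day 1, by ligation of the left anterior descending artery (MI, myocardial infarction) or by sham surgery. The hearts were collected 3 or 7 days later and cut transversely 200 µm under the ligature, with sham hearts cut at the same height. Each section was 1 heart, and only MI at day 7 had a second one, so the other groups have no replicate error. The sex of the animals is not given in the labels.

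The epicardium is the single-layered mesothelium on the outer surface of the heart. In the embryo its cells undergo epithelial to mesenchymal transition and give rise to cardiac fibroblasts and mural cells. It makes retinoic acid and secretes growth factors, and after injury it switches embryonic genes such as Wt1 and Aldh1a2 back on. Since the layer is thinner than a spot is wide, an epicardial spot also holds myocardium below it.

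The sections differed in depth and in how their tables were made. The median raw UMI count per spot ran from 20842 in sham day 3 to 53940 in MI day 7 replicate 1. The sham day 3 table held raw UMI counts and the other 4 held values corrected for depth by sctransform, each section on its own, so every level compared across sections below comes from tables normalised separately. Levels are counts per 1000000 (CPM) over 13711 genes present in all 5 tables, averaged over spots, and differences are on the log2(CPM + 1) scale, which understates changes of low genes. CPM from 3' tags was not divided by gene length, so levels are compared between spots, not between genes. Of 1948 spot barcodes, 897 occurred in more than 1 section because every capture area carries the same grid.

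The top-score spots of 2 sections stood apart. Those of sham day 7 carried haemoglobin mRNA far above the rest of the section, with Hba-a1, an alpha-globin, at 23975 CPM against 2913 CPM in matched spots. In MI day 7 replicate 2, 29 of the 31 top-score spots formed 1 connected block with a low level of heart muscle mRNA. Several counts are given without these sections as well. In tissue sections, fewer cells of a type and less RNA per cell cannot be told apart.

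**Figure D1:**
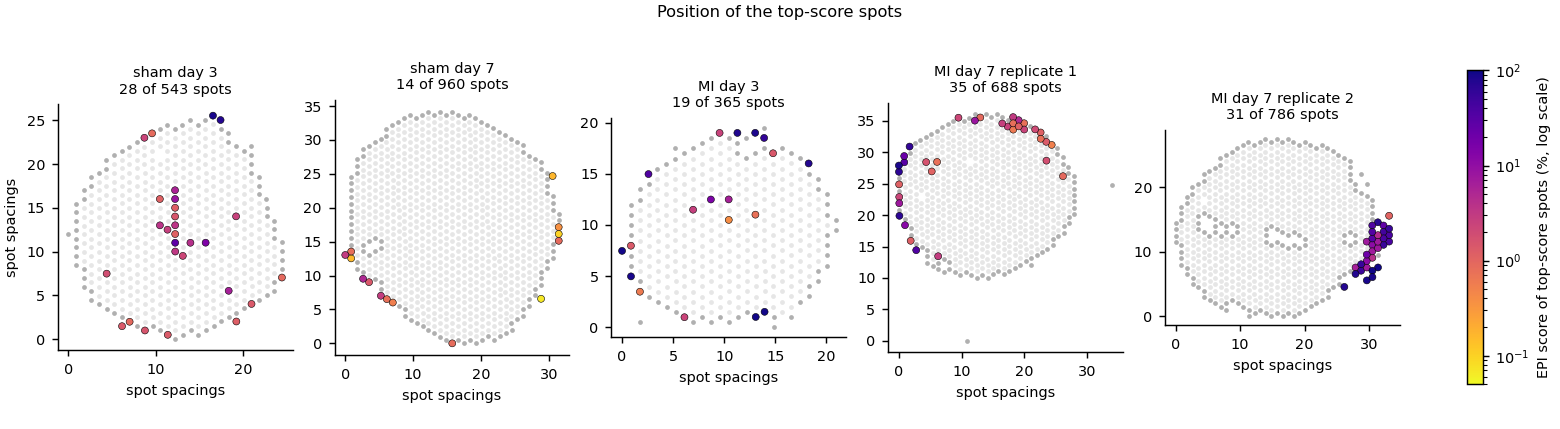
Spot positions in the 5 sections, both axes in spot spacings, with top-score spots coloured by EPI score (percent, log scale) other edge spots in dark grey and other interior spots in light grey. The 14 top-score spots of sham day 7 all lie at the section edge, and MI day 7 replicate 2 has 29 of its 31 in a single block.

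The spots were chosen by their EPI score, and their scores, given here as a description, covered a wide range. The median EPI score was 2.28%, 0.796%, 15%, 2.19% and 37.5%, and the highest was 88.6%, 5.04%, 93.1%, 85.8% and 94.4%. The last spot taken had 0.869%, 0.0691%, 0.389%, 0.528% and 1.05%, and the first left out had 0.834%, 0, 0.322%, 0.512% and 0. EPI was the highest of the 11 scores in only 31 of the 127 spots, which were 2, 0, 8, 6 and 15 by section. A score of at least 10% was reached by 44 spots, which were 4, 0, 10, 8 and 22. Most top-score spots of every section therefore had a higher score for another cell type. The fibroblast score was the highest in 16 of 28 spots of sham day 3. CM4, a cardiomyocyte population, was the highest in 11 of 14 spots of sham day 7, with a mean score of 61.3%. CM1, the main cardiomyocyte state, was the highest in 21 of 35 spots of MI day 7 replicate 1.

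The label was checked against 4 epicardial markers. These were Msln (mesothelin, a surface protein of mesothelia), Krt19 (an epithelial keratin), Upk3b (a uroplakin of mesothelial cells) and Wt1 (a transcription factor of the epicardium). At least 2 of the 4 had a value in 43 of the 127 top-score spots (33.9%) and in 201 of 3215 other spots (6.25%). By section the top-score count was 2 of 28, 1 of 14, 13 of 19, 10 of 35 and 17 of 31. No marker had a value in 49 top-score spots. Among spots with an EPI score of at least 10%, 31 of 44 (70.5%) had at least 2 markers, and among those under 10% it was 12 of 83 (14.5%). In sham day 3 the 2 spots with the most values of each marker held 83.3% of the Msln, 80.0% of the Krt19 and 100% of the Upk3b values of all 28, but 50.0% of the Wt1 values, which lay in 6 spots. In the sham sections together, 3 of 42 spots (7.14%) had at least 2 markers, against 21 of 1461 other spots (1.44%), and 27 of the 42 had none, so the label did not hold for most of them. In sham day 7 Krt19 was at 0 in all 14 spots (fewer than 3 values correspond to under 9.39 CPM, counting error only), Msln had values in 1 spot, and Upk3b was not listed in that table. The chosen spots are therefore called top-score spots only, with no cell type. In the MI sections 40 of 85 spots (47.1%) had at least 2 markers, against 180 of 1754 other spots (10.3%), so most did not. The share in MI day 7 replicate 1 was 28.6%, against 12.7% of its other spots. The markers come from the same expression values as the score, and whether a marker has a value depends on depth.

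Position was not used to choose the spots. A spot counted as edge when it had fewer than 6 direct neighbours on the grid. Top-score spots were at the edge in 39.3%, 100%, 73.7%, 60% and 71.0%, against 14.6%, 11.4%, 17.6%, 11.9% and 18.1% of the other spots. The edge share was higher in 5 of 5 sections, by a mean of 54.0 percentage points ± 22.9 (SD, n = 5 sections, exact two-sided sign-flip permutation test, p = 0.0625, the smallest that 5 sections allow). The mean without sham day 7 was 45.4 points. In MI day 7 replicate 2, 18 of the 31 lay on the outer outline and 4 beside a gap inside the section. Spots with a score of at least 10% were at the edge in 36 of 44 cases, and those under 10% in 46 of 83. Of the 43 spots with at least 2 markers, 34 were at the edge.

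Depth also moved with the choice. The median raw UMI count of top-score spots was 19102, 22358, 26879, 45203 and 11104, against 21062, 23006, 35366, 54231 and 21120 in the other spots. The log2 ratio at matched position averaged -0.31 ± 0.330 (SD, n = 5 sections) and was below 0 in 4 of 5, and the exact two-sided sign-flip permutation p was 0.125. MI day 7 replicate 2 alone was at -0.85, and without it the mean was -0.17. Its part in the gene levels was not tested.

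**Figure D2:**
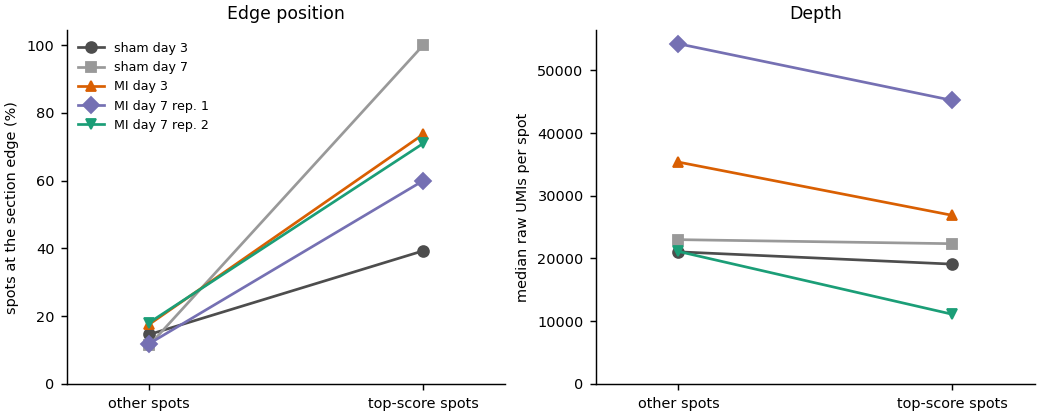
Left, percent of spots at the section edge, and right, median raw UMIs per spot, for the other spots and the top-score spots of each section (1 line per section). Every line climbs on the left, from at most 18.1% to at least 39.3%, and the steepest fall on the right is that of MI day 7 replicate 2, from 21120 to 11104.

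From here, matched spots are the other spots of the same section weighted to the same shares of edge and interior spots. The EPI score was computed from the same expression values, so every top-score minus matched difference is a description of what was chosen and has no test. Where a mean rests on few spots, the lowest, median or highest spot is given with it.

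Connected patches showed that the score marked different tissue in different sections. The top-score spots fell into 15, 7, 16, 18 and 3 patches, the largest of 11, 3, 2, 9 and 29 spots. In sham day 3 the largest patch had 11 spots, none at the edge, and Msln, Krt19 and Upk3b were at 0 in all of them. Its mean fibroblast score was 67.0% and its EPI scores ran from 1.12% to 27.5%. Among its leading genes, Irx2, an Iroquois homeobox transcription factor, had values in the most spots. It was at 91.7 CPM, with values in 10 of 11 spots, against 17.6 CPM in matched spots. The largest patch of MI day 7 replicate 1 had 9 spots with Msln, Krt19, Upk3b and C3 all at 0, a mean CM1 (main cardiomyocyte state) score of 58.7% and EPI scores of at most 4.78%. A 4-spot edge patch of the same section was the opposite. Its EPI scores ran from 21.4% to 85.8%, and all 4 spots had at least 2 markers. There Msln was at 114 CPM, Upk3b at 143 CPM, C3 at 594 CPM and Col1a1 at 4110 CPM.

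The 29-spot block of MI day 7 replicate 2 combined epicardial, fibroblast and inflammatory transcripts. It had 20 edge spots, EPI scores from 4.12% to 94.4%, and mean scores of 38.5% EPI, 28.4% fibroblast and 22.4% macrophage. C3, complement component 3, had values in 29 of 29 spots and a mean of 1789 CPM. Col6a5, a collagen VI chain, was at 489 CPM against 5.88 CPM in matched spots, and Enpp2, which makes lysophosphatidic acid, at 300 CPM against 4.18 CPM. Chemokines and cytokines were among its leading genes as well, with Ccl7 at 173 CPM (19 spots), Ccl6 at 429 CPM (26 spots), Cxcl1 at 100 CPM (16 spots) and Il1b at 60.3 CPM (10 spots). Myh6, the alpha myosin heavy chain of heart muscle, was at 2221 CPM in the block and at 7607 CPM in the matched spots of the section. Spots with a macrophage score as the highest of the 11 numbered 7 among the 31, and in the other 4 sections there were 0.

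Msln (chromosome 17, 25748613 to 25754378, minus strand, GRCm38) was at 59.2, 6.35, 142, 26.2 and 90.9 CPM in top-score spots and at 1.63, 1.64, 14.1, 2.70 and 4.09 CPM in matched spots. It was higher in all 5 sections, by a median of 3.24 on the log2 scale. Single spots ranged from 0 to 1310 CPM in sham day 3, and the median spot was at 0 in every section except MI day 3, where it was 83.2 CPM. In sham day 3 the top-score spots held 12 of the 15 Msln UMIs of the section.

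Upk3b (chromosome 5, 136038496 to 136046487, plus strand) was at 57.3, 62.9, 18.0 and 193 CPM in the 4 sections that list it, against 1.90, 7.70, 2.03 and 5.21 CPM in matched spots. In MI day 7 replicate 2 it reached 1636 CPM in a single spot and was at 0 in 19 of 31. The share of the section's Upk3b values held by top-score spots was 64.7% in sham day 3, 51.9% in MI day 3, 55.0% in MI day 7 replicate 1 and 75.5% in replicate 2. The uroplakin values of each of these sections thus lay mostly in top-score spots.

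Krt19 (chromosome 11, 100140810 to 100148665, minus strand) was at 9.11, 0, 29.3, 14.7 and 58.4 CPM, against 4.07, 0.799, 7.58, 5.90 and 7.51 CPM. It was higher than in matched spots in 4 sections, and the 0 of sham day 7 means only under 9.39 CPM. Wt1 (chromosome 2, 105126529 to 105173616, plus strand) was at 21.7, 15.6, 25.8, 17.8 and 113 CPM, against 11, 8.84, 16.3, 7.07 and 7.16 CPM. It was higher in all 5, by 0.64 to 1.22 in 4 sections and by 3.81 in MI day 7 replicate 2. Only 6.06% of the section's Wt1 values in sham day 3 and 2.0% in sham day 7 lay in top-score spots, and 30% in MI day 7 replicate 2. Most Wt1 values of every section thus lay outside the top-score spots.

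Around the top-score spots Msln was lower in every section. Msln was at 3.03, 1.84, 18.0, 2.04 and 3.45 CPM in direct neighbours that were not top-score spots, and at 0.170, 0.25, 6.27, 0.876 and 2.62 CPM in spots beyond the second ring. C3 in MI day 7 replicate 2 went from 1754 CPM in top-score spots to 224 CPM in the first ring, 72.7 CPM in the second and 16 CPM beyond. Col1a1, the type I collagen chain, was in the same order there, at 8203, 5543, 2530 and 890 CPM.

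**Figure D3:**
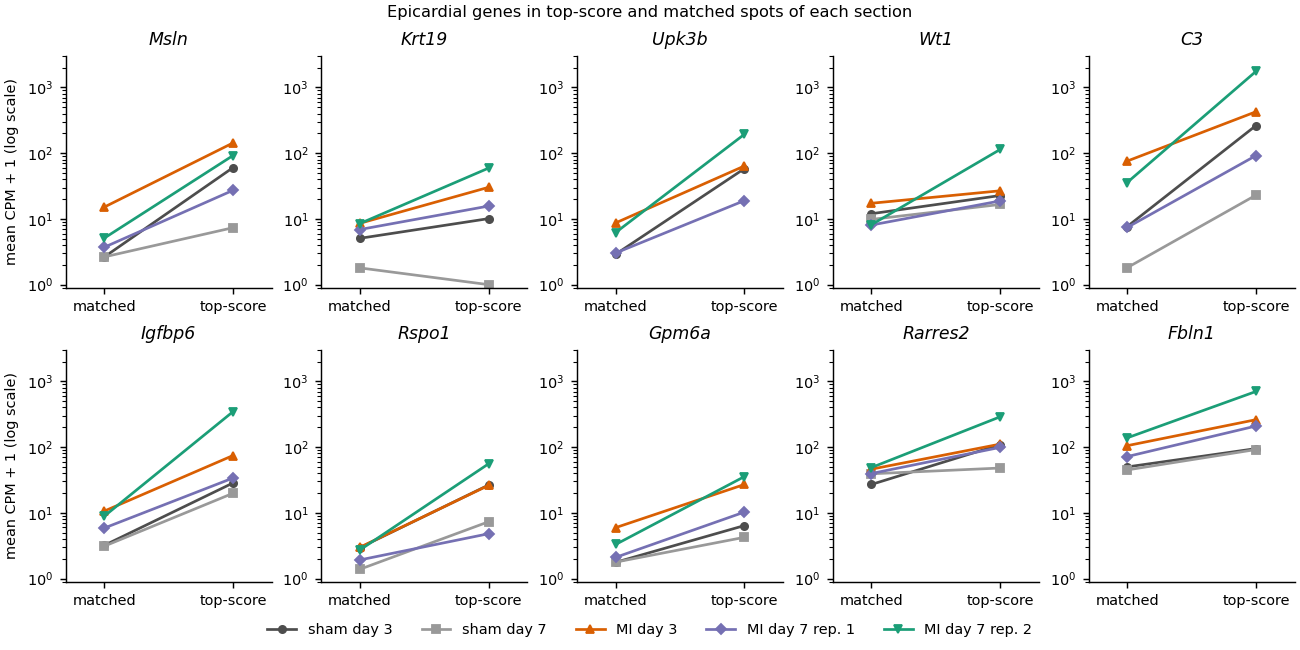
Mean CPM + 1 (log axis) of 10 genes in matched and top-score spots, 1 line per section. C3, Igfbp6 and Msln are higher in the top-score spots of all 5 sections, Upk3b has no sham day 7 line because that table does not list it, and Krt19 sits at 0 CPM in sham day 7, which means under 9.39 CPM.

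Over all genes, 471 of 11224 (4.20%) were higher in top-score than in matched spots of all 5 sections, and 806 (7.18%) were lower in all 5. The median over all genes was 0.05, -0.33, 0.02, 0.01 and 0.10 in the 5 sections. In sham day 7 the 6 blood markers summed to 68414 CPM, against 9372 CPM in matched spots, and their part in the -0.33 was not tested. Under median-of-ratios scaling, the number of genes that were at 10 CPM or more in every section and higher in all 5 went from 338 to 563. Without sham day 7, 1471 genes (13.1%) were higher and 1023 (9.11%) lower in the 4 other sections, and without MI day 7 replicate 2 it was 622 (5.54%) and 1189 (10.6%).

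Of 14 measured mesothelial surface genes, 9 were higher in all 5 sections (background 4.20%) and 1 was lower (background 7.18%). The list median was 1.45, 0.41, 1.26, 1.39 and 2.77. Without sham day 7 the number higher was 11 of 14 (background 13.1%), and without MI day 7 replicate 2 it was 9 of 14 (background 5.54%). The 9 were C3, Igfbp6, Efemp1, Gpm6a, Cldn15, Rarres2, Krt18, Cdh3 and Clu. Efemp1 (fibulin-3, an extracellular matrix protein) was at 29.7, 3.17, 72.6, 13.6 and 15.1 CPM, against 0.460, 0, 15.7, 1.88 and 0.972 CPM. Gpm6a, a membrane glycoprotein found on mesothelium, was at 5.40, 3.24, 26.0, 9.27 and 34.6 CPM, against at most 4.95 CPM in matched spots. Cldn15, a tight junction claudin, was at 9.35, 6.27, 20, 3.83 and 41.8 CPM, against at most 3.49 CPM. In sham day 7 these 3 levels rest on 1, 1 and 2 values, so they lie under the 9.39 CPM that 3 values would give. The sham day 7 levels of Krt18 (6.38 CPM) and Cdh3 (3.15 CPM) lie under it as well. Podxl, podocalyxin, which endothelium also expresses, was the member lower in all 5. Upk1b, Dmkn and Lrrn4 are not in all tables, and their top-score levels in MI day 7 replicate 2 were 41.2, 127 and 55.7 CPM, against 0.598, 2.12 and 0.307 CPM.

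C3 (chromosome 17, 57203970 to 57228136, minus strand) led all genes that were at 10 CPM or more in the top-score spots of every section. It was at 262, 22, 426, 90.9 and 1754 CPM, against 6.64, 0.811, 74.8, 6.41 and 34.8 CPM, a median difference of 3.66. Spots ranged from 0 to 6767 CPM in sham day 3, where 85.4% of its values came from a pair of spots, and from 409 to 4050 CPM in MI day 7 replicate 2. Top-score spots held 57.7%, 38.9%, 40.4%, 63.4% and 75.6% of the C3 values of their sections.

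Igfbp6 (chromosome 15, 102144362 to 102149511, plus strand), a binding protein for insulin-like growth factor 2, came next. It was at 27.4, 18.8, 73.3, 32.8 and 344 CPM, against 2.19, 2.10, 9.60, 4.85 and 7.85 CPM, a median difference of 2.81. It had values in 2 of 14 top-score spots in sham day 7 and in 30 of 31 in MI day 7 replicate 2. Both genes are known in mesothelium, and C3 also comes from fibroblasts and macrophages.

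The other 18 of the 20 genes with the largest median difference lay between 1.06 and 1.39. Of these 18, Fbln1 is on the fibroblast list and Rarres2 on the mesothelial list. Cdh11, a mesenchymal cadherin, was at 59.1, 18.9, 74.5, 19.6 and 154 CPM, against 21.4, 6.95, 27.8, 13.2 and 19.6 CPM. Fbln1, fibulin-1, was at 93.8, 90.7, 260, 208 and 700 CPM, against 48.9, 43.9, 104, 70.7 and 137 CPM. Tnc, tenascin-C, a matrix protein of tissue repair, was at 33.6, 25.3, 103, 40.5 and 257 CPM, against 20.7, 12.8, 42.2, 11.5 and 30.8 CPM. The smallest difference of any section was 0.53 for Cdh11, 0.93 for Fbln1 and 0.68 for Tnc. Also among the 20 were Col16a1, Col6a6, Gpc3, Cpxm1, Olfml3, Megf6 and Aebp1.

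Serping1, the C1 inhibitor, was at 54.6, 47.3, 133, 119 and 501 CPM, against 30.8, 45.5, 58.5, 52.5 and 70.3 CPM, so in sham day 7 it was hardly apart from the matched spots. Rarres2, the precursor of chemerin, was at 108, 47.0, 110, 98.0 and 288 CPM, against 26.0, 38.2, 45.1, 38.6 and 47.8 CPM. Sfrp1, a secreted Wnt antagonist, was at 64.9, 31.7, 68.9, 49.6 and 114 CPM, against 22.8, 20, 46.2, 20 and 28.5 CPM. Ptgis (prostacyclin synthase), Serpinf1, Ifi27l2a and Smim1 were also among the 20.

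At the other end, 630 genes at 10 CPM or more in matched spots were lower in all 5 sections. The 10 with the largest median difference, from -1.43 to -1.04, were low-level genes that share no list fixed here. They were 9330158H04Rik, Lancl2, Pxmp2, Ate1, St6galnac2, Tmem42, Zfp386, Smad6, Cdc37l1 and 0610009B22Rik. Smad6, an inhibitory Smad of BMP signalling, was at 6.04, 3.14, 6.19, 10.2 and 13.9 CPM, against 15.3, 14.4, 14.2, 10.9 and 15.8 CPM. Lancl2, St6galnac2 and Tmem42 were at 0 in the 14 spots of sham day 7, so their values there say only that they were under 9.39 CPM.

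Epicardial secreted signals were split. Of 23 measured, 7 were higher in all 5 sections (background 4.20%) and 0 were lower in all 5, with a list median of 0.44, -0.03, 0.35, 0.55 and 1.54. With sham day 7 left out, 12 of 23 were higher in the 4 other sections (background 13.1%). The 7 were Rspo1, Slit2, Slit3, Ptn, Fstl1, Ccn3 and Fgf2. Rspo1, R-spondin 1, which raises Wnt signalling, was at 25.5, 6.32, 25.2, 3.81 and 54.8 CPM, against 1.95, 0.384, 1.99, 0.920 and 1.72 CPM. It rested on few spots, since only 2 of 28, 2 of 14, 4 of 19, 4 of 35 and 14 of 31 had a value. Fstl1, follistatin-like 1, was at 328, 265, 457, 318 and 1200 CPM, against 238, 230, 328, 183 and 262 CPM. Ptn, pleiotrophin, was at 194, 116, 465, 261 and 414 CPM, against 121, 99.6, 288, 134 and 216 CPM. Slit2, a guidance ligand, was at 16.6, 21.8, 21.1, 16.1 and 43.0 CPM, against 9.83, 8.20, 13.6, 8.39 and 10.4 CPM. Fgf9, an epicardial growth factor of the embryo, was at 23.8, 3.14, 2.93, 7.50 and 1.67 CPM, against 13.8, 6.88, 8.96, 7.16 and 9.31 CPM. It lay below the matched level in sham day 7, MI day 3 and MI day 7 replicate 2. Its top-score levels there were under the level of 3 values (9.39, 4.61 and 5.19 CPM).

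Receptors and enzymes of the retinoid pathway showed less. Over 8 measured retinoid genes the list median was 0.17, -0.19, 0.09, 0.18 and 0.52. Aldh1a2, the retinaldehyde dehydrogenase of the embryonic epicardium, was at 59.5, 18.7, 67.0, 38.5 and 42.2 CPM, against 39.1, 41.7, 40.5, 35.4 and 51.8 CPM. Its levels in top-score and matched spots crossed over between sections.

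Of 10 measured epicardial transcription factors, 0 were higher in all 5 sections (background 4.20%) and 1, Nr2f1, was lower (background 7.18%) at 3.13 to 3.92 CPM, under the level of 3 values in 4 of 5 sections, with a list median of 0.01, 0.30, 0.04, 0.17 and -0.69. With MI day 7 replicate 2 left out, 3 of 10 (Tcf21, Tbx20 and Gata4) were higher in the 4 other sections (background 5.54%). Tcf21, which marks epicardial cells and fibroblasts, was at 108, 75.9, 108, 55.0 and 45.1 CPM, against 54.4, 39.8, 68.5, 30.5 and 61.1 CPM, so it was higher in every section except MI day 7 replicate 2. Tbx18, a T-box factor of the proepicardium, was at 43.8, 0, 10.7, 7.01 and 19.3 CPM, against 14.8, 5.73, 12.9, 8.07 and 8.47 CPM. In sham day 3 its level was 56.2 CPM in spots with a score of at least 10% and 41.8 CPM in those under 10%. Tbx20, Hand2 and Gata4, which cardiomyocytes also express, were below the matched level only in MI day 7 replicate 2 among the 3 MI sections.

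Of 16 measured genes of epithelial to mesenchymal transition, 5 were higher in all 5 sections (background 4.20%) and 1 was lower (background 7.18%), with a list median of 0.30, 0.05, 0.24, 0.43 and 1.6. Leaving out sham day 7 gave 8 of 16 higher in the 4 other sections (background 13.1%). The 5 were Fn1, Mmp2, Mmp14, Tgfbr3 and Vim, and the lower gene was Cdh2, N-cadherin, which also joins cardiomyocytes. Fn1, fibronectin, was at 487, 384, 1031, 539 and 5247 CPM, against 377, 374, 904, 328 and 576 CPM. Vim, vimentin, was at 921, 551, 1253, 581 and 2176 CPM, against 828, 527, 1032, 456 and 629 CPM.

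Markers of other cell types moved with the score, and their part in the levels above was not tested. Fibroblast markers summed to 8500, 7005, 10841, 11824 and 37921 CPM, against 4972, 5537, 6745, 5889 and 8220 CPM, and 9 of 15 were higher in all 5 sections (background 4.20%). Col1a1 was at 1359, 1094, 2060, 1849 and 8203 CPM, against 680, 766, 1302, 794 and 1159 CPM. Pdgfra, the platelet-derived growth factor receptor of fibroblasts, was at 34.4, 53.5, 80.6, 64.9 and 173 CPM, against 31.4, 34.7, 47.0, 37.5 and 39.1 CPM. Col1a1 had values in 100% of the top-score spots. With sham day 7 left out, 12 of 15 fibroblast markers were higher in the 4 other sections (background 13.1%), and without MI day 7 replicate 2, 9 of 15 (background 5.54%).

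Macrophage markers summed to 187, 246, 1211, 430 and 3837 CPM, against 133, 145, 2837, 218 and 219 CPM. In MI day 3 the top-score spots were below the matched spots, with a list median of -0.56 and Lyz2, lysozyme, at 463 against 1105 CPM. In MI day 7 replicate 2 the median was 3.53 and Lyz2 was at 1928 against 73.7 CPM. Of 12 markers, 2 (C1qc and Mrc1) were higher in all 5 sections (background 4.20%).

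Muscle and vascular markers were on the other side. Of 14 ventricular cardiomyocyte markers, 13 were lower in all 5 sections (background 7.18%), with a list median of -0.13, -0.23, -0.24, -0.05 and -1.6. The exception was Myh7, the fetal myosin heavy chain, at 1860, 443, 2451, 650 and 416 CPM, against 1818, 515, 2981, 596 and 888 CPM. In sham day 7 the list median lay above the -0.33 of all genes, and outside MI day 7 replicate 2 the summed level was still 52220 to 64893 CPM, against 60590 to 73432 CPM in matched spots. Myh6 was at 5692, 7605, 4999, 7141 and 2414 CPM, against 6236, 8665, 5661, 7386 and 7607 CPM. Of 10 endothelial markers, 7 were lower in all 5 sections, with list medians from -0.71 to -0.06. Fabp4, a fatty acid binding protein of capillaries, was at 1264, 1039, 1087, 1207 and 536 CPM, against 1559, 1568, 1364, 1219 and 1244 CPM.

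Lymphatic markers went different ways in different sections. Ccl21a, a chemokine of lymphatic endothelium, was at 83.3, 122, 17.1, 1.61 and 0 CPM, against 12.6, 16.4, 4.89, 2.90 and 4.19 CPM. The gene has near-identical copies, so its counts are uncertain. Lyve1, a hyaluronan receptor of lymphatic endothelium and some macrophages, was at 33.8, 21.7, 4.63, 6.03 and 43.6 CPM, against 8.48, 7.20, 4.06, 3.24 and 3.27 CPM. Mmrn1 was at 25.5 CPM in sham day 7 and at 0 in sham day 3, MI day 3 and MI day 7 replicate 2. The list median was 1.44, 1.32, 0.56 and -0.05 in the first 4 sections. In MI day 7 replicate 2 it was -2.12 with Ccl21a and Reln at 0, and 0.00 when both were set to the level of 3 values.

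Blood markers summed to 5688, 68414, 22760, 14111 and 17906 CPM, against 5396, 9372, 12733, 9158 and 15549 CPM. Hbb-bs, an adult beta-globin, ranged from 2122 to 127150 CPM over the 14 spots of sham day 7. Of 5 tested blood markers, Hbb-bs and Hbb-bt were higher in all 5 sections (background 4.20%), and reads of the paired globin genes are hard to tell apart because their sequences are near-identical. Endocardial markers had a list median of 1.23 in sham day 3, -0.42 in sham day 7, 0.09 in MI day 3, -0.17 in MI day 7 replicate 1 and 0.19 in replicate 2. Cell cycle genes were at 0.17, -0.75, 0.40, 0.23 and 0.43, with 0 of 10 higher in all 5. Mural markers (-0.08, -0.39, 0.11, 0.16 and -0.57) had 0 of 10 higher in all 5 and 1 lower (background 7.18%). The lower gene was Myh11, the smooth muscle myosin heavy chain, at 0 in sham day 3 against 16.6 CPM in matched spots. Atrial (4 tested), nerve and Schwann cell (4), skeletal muscle (2) and adipocyte (1) lists had 0 genes higher in all 5 sections. Plin4, a lipid droplet protein and the 1 adipocyte gene tested, was lower in all 5 (background 7.18%).

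**Figure D4:**
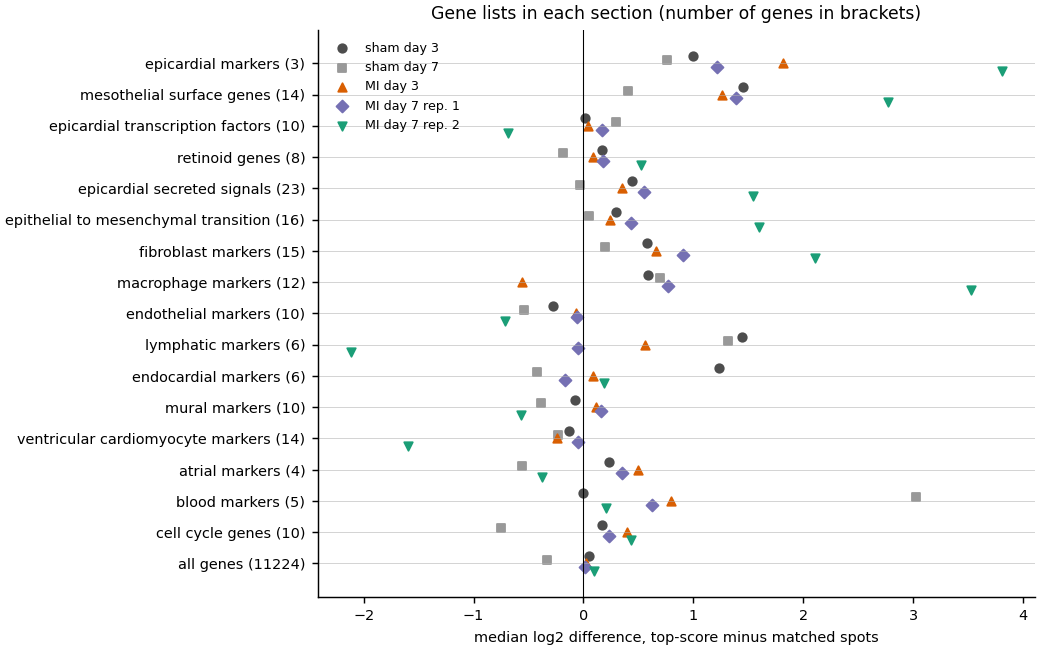
Median log2 difference, top-score minus matched spots, of 16 gene lists and of all genes in each section (3 lists of few tested genes are not drawn, x axis, 1 symbol per section, tested genes in brackets). Mesothelial surface genes and fibroblast markers lie to the right of 0 in all 5 sections, ventricular cardiomyocyte markers to the left, and MI day 7 replicate 2 has the widest spread.

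The comparison of MI with sham asked whether the top-score spots differ between infarcted and sham hearts. Limma fits, two-sided, with day as a covariate were run on 10763 genes, with Benjamini-Hochberg adjustment and a threshold of 0.05. Limma called 0 genes higher and 0 lower in MI (0% of genes tested in each direction), while an unadjusted p under 0.05 was reached by 512 genes above and 57 below sham. The smallest adjusted p was 0.876. Sections of the 2 operations did not overlap, with all 3 MI sections above both sham sections, in 1212 genes (11.3%), and with all 3 below in 862 (8.01%). The median over all genes was 0.17, and 0.05 under median-of-ratios scaling, so the values that follow are to be read against it. Without sham day 7, 1857 genes (17.3%) had MI above and 3482 (32.4%) MI below the 1 remaining sham section, and the median was -0.01. Without MI day 7 replicate 2 it was 1622 (15.1%) and 1329 (12.3%). The EPI scores of the spots differed between operations too, with medians of 2.28% and 0.796% in sham and of 15%, 2.19% and 37.5% in MI, and their part in these values was not tested.

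The fit depended on single sections. Leaving out sham day 3 (the raw count table), MI day 3 or MI day 7 replicate 1 gave 96, 147 and 178 calls, and leaving out sham day 7 or MI day 7 replicate 2 gave 3 and 25. Those fits have 1 residual degree of freedom and borrow nearly all of their spread from other genes. The levels below are therefore given as values, with no gene called.

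Krt19 was at 9.11 and 0 CPM in sham and at 29.3, 14.7 and 58.4 CPM in MI, with no overlap (3.50, SE 0.90, limma adjusted p = 0.876). Krt8, its keratin partner, was at 1.96 and 0 CPM in sham and at 22.4, 11.5 and 31.6 CPM in MI (3.76, SE 0.81, limma adjusted p = 0.876). In both genes every MI section lay above both sham sections, which held for 11.3% of all genes tested. The sham day 7 levels of both and the sham day 3 level of Krt8 lie under the level of 3 values (9.39 and 5.76 CPM), so the size of these values is uncertain. Krt18, at 13.7 and 6.38 CPM in sham and 49.6, 8.14 and 20.4 CPM in MI, had MI day 7 replicate 1 between the sham sections (1.29, SE 0.59, limma adjusted p = 0.876). Msln overlapped, at 59.2 and 6.35 CPM in sham and 142, 26.2 and 90.9 CPM in MI (2.11, SE 0.60), and so did Wt1 (0.95, SE 0.74).

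Of 14 mesothelial surface genes, 5 were above both sham sections in all 3 MI sections (background 11.3%), with a list median of 1.81 beside 0.17 over all genes. They were Krt8, Igfbp6, Gpm6a, Clu and Sbsn. Clu, clusterin, a secreted chaperone, was at 83.4 and 62.8 CPM in sham and at 1104, 88.2 and 1090 CPM in MI, so MI day 7 replicate 1 was close to the sham sections. Sbsn was at 0 in both sham sections and at 13.8, 3.71 and 35.6 CPM in MI, where the 3.71 CPM of MI day 7 replicate 1 is under the sham levels of 3 values (5.76 and 9.39 CPM). With its sham values set to the level of 3 values, the list median was 1.45.

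Secreted signals had 7 of 23 genes above both sham sections in all 3 MI sections (background 11.3%) and 1, Vegfa, below (background 8.01%), with a list median of 0.90. Leaving out sham day 7 gave 7 above (background 17.3%) and 4 below (background 32.4%). The 7 were Cxcl12, Il33, Mdk, Ptn, Tgfb2, Wnt5a and Fgf2. Cxcl12, a chemokine that attracts CXCR4-bearing cells, was at 21.2 and 49.9 CPM in sham and 84.6, 73.3 and 324 CPM in MI. Mdk, midkine, was at 127 and 75.4 CPM in sham and 198, 147 and 439 CPM in MI. Wnt5a, a Wnt ligand, was at 1.72 and 3.15 CPM in sham and 10.9, 10.8 and 15.3 CPM in MI. The sham levels of Wnt5a and Il33 (0 and 3.24 CPM) rest on at most 1 value each, and those of Fgf2 (5.36 and 3.14 CPM) on 3 and 1.

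Fibroblast markers had 9 of 15 genes above both sham sections (background 11.3%), with a list median of 1.07, and 9 of 15 were counted without sham day 7 (background 17.3%) and without MI day 7 replicate 2 (background 15.1%) as well. Fbln1 was at 93.8 and 90.7 CPM in sham and 260, 208 and 700 CPM in MI (1.80, SE 0.53), and Mfap4, a microfibril protein, at 59.0 and 162 CPM in sham and 277, 356 and 350 CPM in MI (1.59, SE 0.39). Neither passed the threshold, with a limma adjusted p of 0.876 each. Genes of epithelial to mesenchymal transition had 5 of 16 above both sham sections (Fn1, Mmp2, Snai1, Tgfbr2 and Zeb2), with a list median of 0.81. Retinoid genes had 2 of 8 above (Dhrs3 and Rarg) and 1 below (Rarb), and epicardial transcription factors had 0 of 9 in either direction (1 above and 3 below without sham day 7, background 17.3% and 32.4%). Ventricular cardiomyocyte markers had 3 of 14 below both sham sections (background 8.01%) and 5 of 14 without sham day 7 (background 32.4%), with a list median of -0.52, and MI day 7 replicate 2 had the lowest level of the 5 sections in each of the 14 genes.

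**Figure D5:**
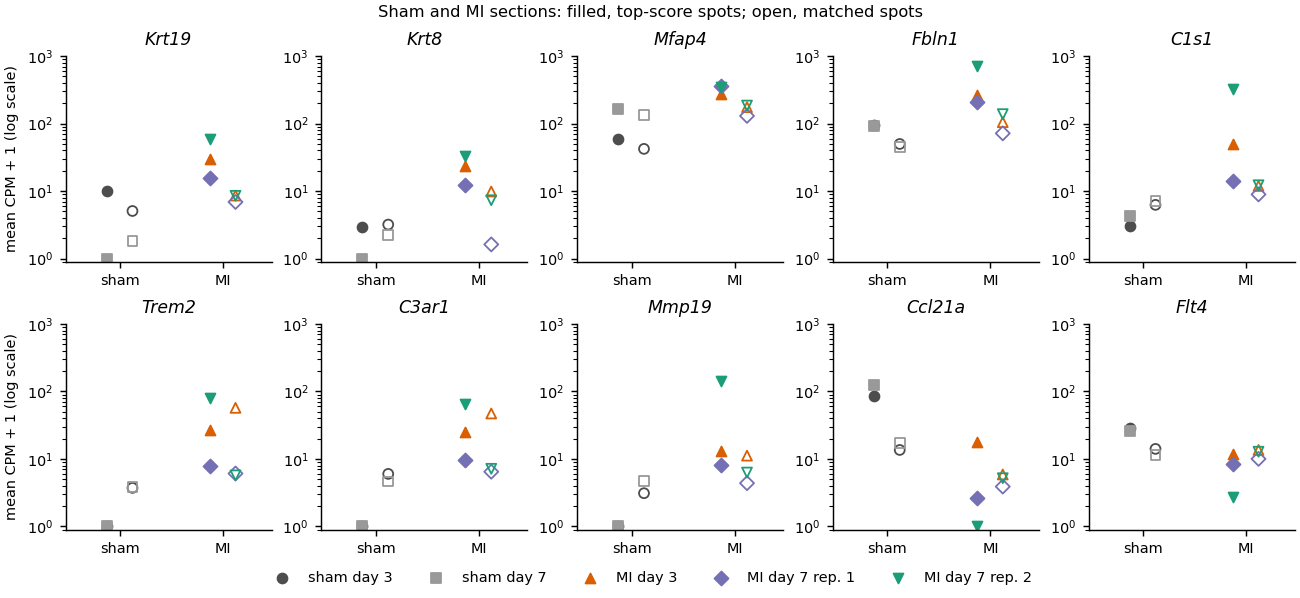
Mean CPM + 1 (log axis) of 10 genes in top-score spots (filled) and matched spots (open) of the 2 sham and 3 MI sections. Trem2, C3ar1 and Mmp19 sit at 0 CPM in both sham top-score groups, Ccl21a runs from 122 CPM in sham day 7 to 0 in MI day 7 replicate 2, and limma called 0 genes.

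By the rule for naming genes, the 10 with the largest MI minus sham value among those that did not overlap and reached 20 CPM were Ccl6, Cd52, Trem2, C3ar1, Mmp19, Tpm3-rs7, Coro1a, Wfdc18, C1s1 and Ifi202b, of which 0 are on the macrophage list. Ccl6, a chemokine of macrophages, was at 2.5 and 0 CPM in sham and 39.6, 15.9 and 406 CPM in MI. Trem2, a lipid receptor of macrophages, was at 0 in both sham sections and at 25.5, 6.98 and 79.0 CPM in MI. C3ar1, the receptor for the C3 fragment C3a, was likewise at 0 in both and at 24.3, 8.64 and 64.6 CPM in MI. Zero in sham means under 5.76 CPM at day 3 and under 9.39 CPM at day 7 (3 values over the spots, counting error only), so no ratio is given, and the levels of Trem2, C3ar1, Cd52 (5.34 CPM), Mmp19 (7.12 CPM), Coro1a (8.06 CPM) and Ifi202b (5.33 CPM) in MI day 7 replicate 1 lay under the sham day 7 limit. C1s1, the complement C1s protease, was at 2.03 and 3.3 CPM in sham and 48.3, 13.0 and 323 CPM in MI (3.99, SE 1.10). Mmp19, a matrix metalloproteinase, was at 0 in both sham sections and 12, 7.12 and 141 CPM in MI. Tpm3-rs7 is a near-identical copy of Tpm3, so its counts are uncertain.

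Several of these genes were also high outside the top-score spots. Matched spots of MI day 3 had 84.4 CPM of Ccl6, 56.2 CPM of Trem2 and 46.2 CPM of C3ar1, all above the top-score spots of that section. Over the macrophage list, 7 of 12 markers were above both sham sections in the top-score spots, with a list median of 2.21 (background 11.3%), and 0 of 12 when the difference from matched spots was compared (background 16.1%). Spp1, osteopontin, was at 0 in both sham sections and in MI day 7 replicate 1, and at 278 and 174 CPM in the other MI sections.

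On the lower side, Ccl21a had the largest value. Its levels were 83.3 and 122 CPM in sham and 17.1, 1.61 and 0 CPM in MI (-4.52, SE 0.91, limma adjusted p = 0.876), with no overlap. The 0 of MI day 7 replicate 2 means under 5.19 CPM, so the size of the -4.52 is uncertain. In sham day 3, 3 of 28 spots carried Ccl21a, and in sham day 7, 7 of 14, where the highest spot had 911 CPM. Flt4, the VEGF-C receptor of lymphatic endothelium, was at 27.3 and 25.1 CPM in sham and 10.7, 7.50 and 1.76 CPM in MI (-1.94, SE 0.71), and with 1 score cut for all sections its value turned to 0.82. The 2 genes were the non-overlapping members among 6 lymphatic markers tested (background 8.01%), and the list median was -1.38. With sham day 7 or MI day 7 replicate 2 left out the count was 3 of 6 (background 32.4% and 12.3%). Slc29a2 (a nucleoside transporter), Mt3 (a metallothionein), Gid4, Pcp4l1, Clock (a circadian transcription factor), Mief1, Spata33 and Plekhh1 made up the remaining 8, with values from -2.36 to -1.75 and top-score levels in MI day 7 replicate 2 of at most 6.91 CPM.

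The second comparison set the top-score minus matched difference of MI against that of sham, which compares spots within each table first. Limma tested 11224 genes and called 0 higher and 0 lower (0% in each direction), while an unadjusted p under 0.05 was reached by 492 genes with a higher and 41 with a lower difference in MI. The smallest adjusted p was 0.951. Differences did not overlap with MI above sham in 1802 genes (16.1%) and with MI below in 616 (5.49%). The median over all genes was 0.22, and 0.05 under median-of-ratios scaling. Without sham day 7, whose top-score spots held the blood transcripts, the median was -0.03, and the 2 shares were 24.4% and 24.7% (MI above and MI below). Leaving out sham day 3 or MI day 3 gave 236 and 244 calls, and leaving out sham day 7, MI day 7 replicate 1 or replicate 2 gave 0, 2 and 1.

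Against this background, secreted signals had 8 of 23 genes and fibroblast markers 7 of 15 with MI above sham (background 16.1%). Mesothelial surface genes had 3 of 14, with a list median of 0.62 beside 0.22 over all genes, and epicardial markers 1 of 3. C3 overlapped. Its difference from matched spots was 5.11 and 3.66 in sham and 2.49, 3.63 and 5.62 in MI (-0.57, SE 0.70). The 10 genes named by the rule were Mmp19, Col12a1, Mmp9, C1s1, Wfdc18, Samhd1, C3ar1, Plac8, Rnf215 and Psmb8. Col12a1, a fibril-associated collagen, differed from matched spots by 0.26 and -3.04 in sham and by 0.61, 2.56 and 3.17 in MI (3.52, SE 0.98, limma adjusted p = 0.951). The -3.04 rests on 0 in the top-score spots of sham day 7, which means under 9.39 CPM, against 7.22 CPM in matched spots. Its direction and the size of the 3.52 are therefore uncertain. C1s1 differed by -1.04 and -0.73 in sham and by 2.05, 0.65 and 4.73 in MI (3.28, SE 0.94, limma adjusted p = 0.951), and its sham levels of 2.03 and 3.3 CPM in top-score spots lie under the level of 3 values (5.76 and 9.39 CPM). Of the 10, only C1s1 had a value above 0 in the top-score spots of sham day 7.

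For genes with a lower MI difference, lymphatic markers had 3 of 6 (background 5.49%), namely Ccl21a, Flt4 and Prox1, the homeobox factor of lymphatic endothelium that cardiomyocytes also express. Ccl21a differed from matched spots by 2.63 and 2.81 in sham and by 1.62, -0.58 and -2.37 in MI (-2.89, SE 0.88, limma adjusted p = 0.951). The -2.37 rests on 0 in top-score spots, which means under 5.19 CPM, against 4.19 CPM in matched spots. Its direction and the size of the -2.89 are therefore uncertain. Flt4 differed by 1.00 and 1.19 in sham and by -0.23, -0.24 and -2.21 in MI, and with 1 score cut for all sections its MI minus sham value turned from -1.91 to 1.04. The other 8 named were Me3 (mitochondrial malic enzyme), Slc29a2, Gid4, Mief1, Scd4 (a stearoyl-CoA desaturase), Fignl1, Grpel2 and Osgepl1.

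The share of top-score spots at the edge did not separate the operations. It was 39.3% and 100% in sham and 73.7%, 60% and 71.0% in MI, a difference of -1.43 percentage points (exact two-sided permutation test, 3 against 2 sections, p = 1.00, where the smallest possible is 0.2). The difference was 28.9 points without sham day 7 and -31.8 points without sham day 3. With both sham sections kept it was above 0 with the highest 2.5% of scores (20 points), with 1 score cut for all sections (6.96 points) and without MI day 7 replicate 1 (2.68 points).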

How the data were processed

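The 5 Visium sections of mouse hearts used here came each from 1 heart (2 sham, 3 MI). The authors aligned the reads to mm10 (GRCm38) in Space Ranger, whose version is not given in the sources used here, and normalised each section in Seurat with sctransform. The sham day 3 table deposited by the authors holds raw UMI counts per gene and spot, as do the per-spot UMI totals of all sections. The other 4 deposited tables hold counts corrected by sctransform and rounded, whose spot totals equal the corrected totals in 100% of spots. Such tables were normalised section by section and list only genes seen in at least 5 spots. The cell type scores deposited by the authors are fractions from label transfer, given here as percent. They are not cell proportions.

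Spots under 1000 raw UMIs were left out. Gene names turned into dates by a spreadsheet (19 and 20 in 2 tables) were not used. CPM was computed per spot over 13711 shared genes (99.8% to 99.9% of values) and averaged over spots. Genes at 5 CPM or more in at least 2 profiles were tested on log2(CPM + 1) with limma 3.58.1 (R 4.3.3, mean-variance trend, day as covariate, Benjamini-Hochberg threshold 0.05). No count model was used because 4 tables hold no raw counts. Edge shares and UMI totals were compared by exact permutation tests over sections, enumerated in Python 3.11.15. The limma step was tested on simulated data. Intervals implied by 3 values (1.61 to 9.39 CPM) cover counting error only. Sections are single hearts, and p-values rest on the spread between them.

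Members, markers and the 19 gene lists were chosen with earlier results of these data known. Named were all markers and list genes, the 20 genes with the largest median difference among those at 10 CPM or more and higher in all 5 sections, the 10 lowest likewise, and for each MI comparison the 10 largest values per direction among genes at 20 CPM or more whose sections did not overlap, since fewer than 10 genes passed the threshold. Other score shares, a common score cut, UMI minimum, scaling, pseudocount, filter, comparison spots and leaving out each section were tried. Some genes that meet these rules are not reported here.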

Additional observations from a re-analysis of the deposited data

How the results depend on the processing

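Leaving out 1 section gave 3 to 178 limma calls for MI minus sham in top-score spots, where all 5 sections gave 0, and 0 to 244 calls for the comparison of differences from matched spots, where all 5 also gave 0. These fits have 1 residual degree of freedom, and a group left with 1 section is assumed to vary like the others. The other alternatives gave 0 calls in both. The MI minus sham edge share turned from -1.43 points to 20 points with the highest 2.5% of scores and to 6.96 points with 1 score cut for all sections, and leaving out 1 section gave -31.8 to 28.9 points, with values above 0 without sham day 7 (28.9) and without MI day 7 replicate 1 (2.68). The number of genes at 10 CPM or more that were higher in all sections was 338, and 530 without mitochondrial and haemoglobin genes, 563 with median-of-ratios scaling and 440 to 1161 when 1 section was left out. The last count grows by construction, since fewer sections must meet the condition. The number lower in all sections went from 630 to 1045 without sham day 3 and to 1003 without MI day 3. With 1 score cut, MI minus sham of Flt4 turned to 0.82 in top-score spots and 1.04 against matched spots, and that of Scd4 against matched spots to 0.41. The cause was not tested. For single genes, lists and the number of genes lower in all sections, 1003 values were counted as unchanged. For genes of the limma comparisons, unchanged meant the same direction and side of the threshold. For markers and lists it meant a median shift smaller than the SD over sections, with no check of direction. For the number of genes it meant staying within a fixed ratio. Another 52 gene values passed the threshold only in fits without 1 section. No paired analysis was possible because the groups share fewer than 2 replicate numbers and each section is a different heart. The number of top-score spots and their depth together limit low genes, with 3 values corresponding to between 1.61 CPM (MI day 7 replicate 1, 35 spots) and 9.39 CPM (sham day 7, 14 spots).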
